A study of Mus musculus with 15 samples.

Results

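The genes of the intrarenal renin-angiotensin system were described in RNA-Seq data from single microdissected mouse kidney tubules and from whole kidney. The 8 genes were found by symbol among 47069 genes in the authors' table: Agt, Ren1, Ace, Agtr1a, Agtr1b, Enpep, Mme and Lnpep, all of which were found. The table held 12 libraries of proximal tubules labelled PTS2 (sets m1, m2 and m3, each with replicates 1 to 4), and 3 libraries of whole kidney. All came from male mice of the C57BL/6 strain at 2 months of age, and the labels name no transgene, deletion, treatment or agent in any group. The labels do not say what the letter m or the replicate number stands for, nor whether libraries came from separate animals, so p-values measure only the spread between these libraries, which may be technical. Levels are TPM (transcript abundance per transcript length, scaled to a common total), which keep no sequencing depth. The depth of each library is therefore unknown, and no counting interval is given.

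The renin-angiotensin system makes a small peptide hormone by cutting a large precursor in steps. Renin, an enzyme released by the granular cells of the afferent arteriole, cuts angiotensinogen to angiotensin I, and angiotensin-converting enzyme trims this to angiotensin II, which raises vessel tone and sodium reabsorption through type 1 receptors. The proximal tubule is known to make angiotensinogen itself, to carry converting enzyme and peptidases on its brush border, and to bear type 1 receptors, so that the hormone can be made and broken down next to the cells that respond to it.

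In the PTS2 tubules the precursor and the converting enzyme were higher than in whole kidney, while renin and the type 1a receptor were lower. Agt averaged 172 ± 57.4 TPM in the tubules (SD, n = 12), against 59.9 ± 3.60 TPM in whole kidney (SD, n = 3). Ace was at 72.9 ± 15.8 TPM and 38.0 ± 2.40 TPM. Ren1 averaged 0.605 ± 0.848 TPM in the tubules, against 111 ± 8.33 TPM in whole kidney, and Agtr1a at 21.3 ± 3.38 TPM and 44.1 ± 0.674 TPM. Differences were tested on the log2(TPM + 1) scale, which understates changes of low genes, with limma over all genes that averaged 1 TPM or more, and a gene was called at an adjusted p under 0.05. Of the 8 genes, 7 were tested and 5 were called, where 51.2% of all 12039 genes tested were called. Of the 5, Agt and Ace were higher in PTS2 and Ren1, Agtr1a and Lnpep lower, against a background of 9.68% called higher and 41.5% called lower. Ren1 averaged under 1 TPM in PTS2 and passed the filter only through whole kidney, so it could only be called lower. The median log2 difference of the 7 genes was -0.50, and that of all genes tested was -0.27. Because of that shift the log2 differences of the 7 genes are also given relative to the median of all genes. On that scale Enpep was at -0.24, Mme at 0.71 and Lnpep at -0.54. The relative values of Agt, Ren1, Ace and Agtr1a are given below, and those of the pathway genes are not given.

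Promoter sequences are shown for the precursor, renin, the converting enzyme and aminopeptidase A, so that a reader can compare genes that were higher (Agt, Ace), lower (Ren1) and not called (Enpep) in the tubules. They come from RefSeq on build GRCm38.p6, where 7 of the 8 genes had an entry; Agtr1a had none in that table. Each stretch holds the 200 bases before the RefSeq start site and the first 20 bases from it, 5′ to 3′ in the direction of the gene. Capitals mark matches, on either strand, to the TATA box (TATAAA) or to the STAT element (TTCNNNGAA).
Agt, chr8:124569687-124569906, minus strand: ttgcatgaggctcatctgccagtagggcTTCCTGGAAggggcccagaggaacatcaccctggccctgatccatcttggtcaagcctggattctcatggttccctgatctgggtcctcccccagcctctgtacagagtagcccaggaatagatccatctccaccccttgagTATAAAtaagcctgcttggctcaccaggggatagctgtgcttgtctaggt
Ren1, chr1:133350474-133350693, plus strand: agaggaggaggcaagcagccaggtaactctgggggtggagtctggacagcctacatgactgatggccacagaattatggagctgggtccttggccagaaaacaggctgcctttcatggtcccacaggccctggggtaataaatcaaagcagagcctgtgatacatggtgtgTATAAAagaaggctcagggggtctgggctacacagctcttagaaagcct
Ace, chr11:105967748-105967967, plus strand: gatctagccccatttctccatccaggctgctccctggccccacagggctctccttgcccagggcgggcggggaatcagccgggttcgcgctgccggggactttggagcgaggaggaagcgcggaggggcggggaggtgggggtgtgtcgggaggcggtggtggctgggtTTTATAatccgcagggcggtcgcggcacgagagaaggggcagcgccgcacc
Enpep, chr3:129332730-129332949, minus strand: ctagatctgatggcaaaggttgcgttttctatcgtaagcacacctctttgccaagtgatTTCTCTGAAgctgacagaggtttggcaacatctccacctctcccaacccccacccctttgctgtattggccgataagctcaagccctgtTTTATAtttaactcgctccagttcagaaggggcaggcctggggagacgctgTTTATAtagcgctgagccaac
A TATA box began 30 bases before the start site in Agt and 29 bases before it in Ren1. In Ace the match lay on the opposite strand, 31 bases before the start site, and in Enpep matches on the opposite strand began 52 bases and 1 base before it. The STAT element, the binding motif of a family of factors activated by cytokine and growth hormone receptors, was found 172 bases before the start site of Agt and 141 bases before that of Enpep. Over 32851 RefSeq promoters of 300 bases, 13.6% held the TATA box and 8.30% the STAT element. The element AGGTCA of nuclear receptors (in 16.3% of promoters) and the element GTTAAT of the factor HNF1 (in 7.10%) were searched as well, on both strands, and these letters were in none of the 4 stretches. RefSeq lists a second promoter of Ace, not shown, which held AGGTCA 50 bases before its start site. No motif overlapped another.

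The tissue label was compared with marker genes, from lists chosen with earlier results of these data known. Markers of all proximal segments summed to 135% of the whole-kidney mean. That sum was carried by Slc27a2, at 198%, while Lrp2 was at 97.7%, Cubn at 97.6%, Hnf4a at 89.9% and Slc34a1 at 73.7%. Markers of the S1 segment summed to 5.83%, those of S2 to 86.2% and those of S3 to 211%. Among the S1 markers Slc2a2 was at 41.7%, Slc5a2 at 0.112% and Slc5a12 at 0.0864%. The S3 sum lay above whole kidney in all 12 libraries, although the libraries are labelled PTS2, and of the S2 markers Slc22a8 was at 25% of whole kidney and Slc22a6 at 120%. One library stood apart: in m3 replicate 3 the markers of the thick ascending limb summed to 1441 TPM, where the median of the 12 libraries was 10.7 TPM and the whole-kidney mean 2569 TPM. Without this library the count of genes called among the 8 was again 5, and the log2 differences were 1.44 for Agt, -6.38 for Ren1, 0.91 for Ace, -0.99 for Agtr1a and -0.81 for Lnpep.

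Angiotensinogen, the only known precursor of the angiotensins, is encoded by Agt (ENSMUSG00000031980; GENCODE M21 on GRCm38, chromosome 8, 124556534 to 124569706, minus strand). Its levels in replicates 1 to 4 were 205, 144, 145 and 76.8 TPM in m1, 272, 249, 173 and 152 TPM in m2, and 223, 177, 142 and 104 TPM in m3. In whole kidney they were 63.3, 56.1 and 60.3 TPM. The groups did not overlap, although the lowest tubule, m1 replicate 4, lay close to whole kidney and the highest, m2 replicate 1, far above it. The mean was 2.87 times that of whole kidney, and the log2 difference was 1.43 ± 0.28 (SE, limma adjusted p = 0.000501), or 1.69 relative to the median of all genes. By rank among the 47069 genes of a library, Agt stood at a median of 976 in PTS2 and 2476 in whole kidney. In PTS2 it was the most abundant of the 8 genes in every library, whereas in whole kidney Ren1 and Enpep lay above it in all 3 libraries.

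**Figure D1:**
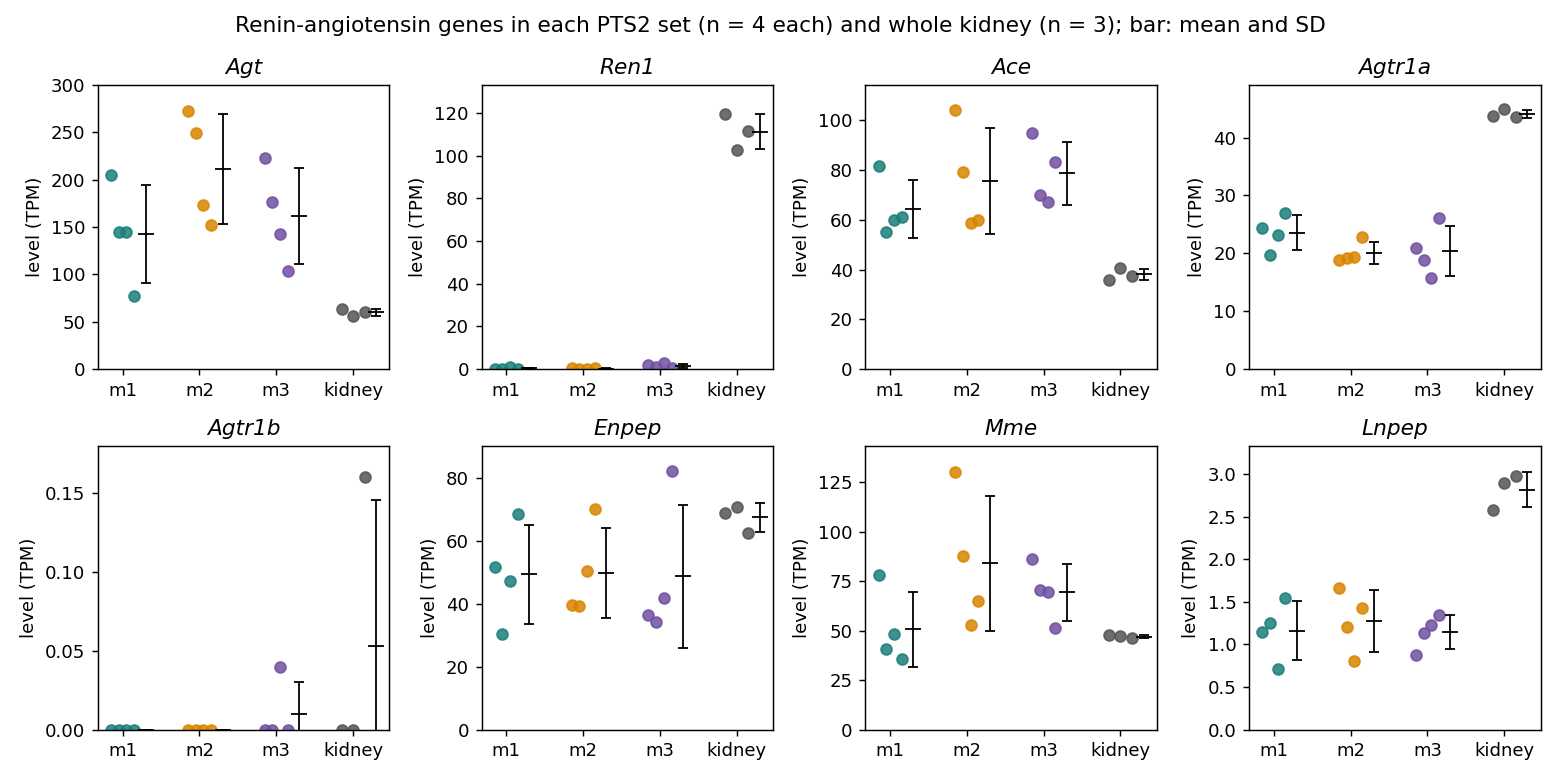
Levels of the 8 genes in TPM, with 1 point per library, for the PTS2 sets m1, m2 and m3 (n = 4 each) and whole kidney (n = 3); the bar beside each group is its mean and SD, and each panel has its own axis from 0. Agt and Ace lie above whole kidney in all 12 tubules, Ren1, Agtr1a and Lnpep below it in all 12. Enpep and Mme overlap with it. The share of all tested genes without overlap is not given here.

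Renin is encoded by Ren1 (ENSMUSG00000070645; chromosome 1, 133350510 to 133360325, plus strand), the renin gene of the C57BL/6 strain. In replicates 1 to 4 it was at 0.04, 0, 0.71 and 0.19 TPM in m1, 0.22, 0.09, 0.18 and 0.22 TPM in m2, and 1.87, 0.69, 2.75 and 0.30 TPM in m3. In whole kidney it was at 120, 103 and 112 TPM. All 12 tubules lay far below whole kidney, and m1 replicate 2 was listed at 0. The PTS2 mean was 0.544% of the whole-kidney mean, and the log2 difference was -6.26 ± 0.33 (SE, limma adjusted p = 8.11e-11), or -5.99 relative to the median of all genes. Its place among the 8 genes turned over: Ren1 was the most abundant in every whole-kidney library, and in PTS2 it was below Agt, Ace, Agtr1a, Enpep and Mme in every library and below Lnpep in 9 of 12. By set Ren1 averaged 0.235 ± 0.327 (m1), 0.177 ± 0.0613 (m2) and 1.40 ± 1.12 TPM (m3; SD, n = 4). Its mean over PTS2 was under 1 TPM, so it did not enter the test among sets. It entered the fit against whole kidney only through the whole-kidney libraries, so a call there could only be lower. In the fit with no filter on low values the F test over sets gave an unadjusted p of 0.0189 and a limma adjusted p of 0.429.

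Markers of the cells around the glomerulus that hold renin, or lie beside them, were lower in PTS2, as Ren1 was. The other markers of the granular cell, Akr1b7 and Gja5, were lower in every tubule, 2 of 2, with sums of 0.04 to 0.48 TPM in PTS2 and 4.80 to 6.43 TPM in whole kidney, and Akr1b7 was at 0 in 7 tubules. The 4 markers of vascular smooth muscle, all lower in every tubule, summed to 0.02 to 2.70 TPM and 67.5 to 84.0 TPM, with Cnn1 at 0 in 11 tubules, Myh11 in 5 and Acta2 in 4. The 6 markers of endothelium, all lower in every tubule and none at 0, summed to 11.6 to 41.2 TPM and 149 to 160 TPM. As shares of whole kidney these sums were 2.67% for the granular cell, 1.25% for smooth muscle and 14.2% for endothelium, beside 0.544% for Ren1. Low shares were not limited to these cells. Every marker of podocytes (sum 1.76%), macula densa (3.7%), distal convoluted tubule (0.164%), principal (0.823%) and intercalated cells (0.153%) was also lower in every tubule. The macula densa markers were low in whole kidney as well, with sums of 0.19 to 0.65 TPM. The highest Ren1 levels, in m3 replicates 3 and 1, went with endothelial sums of 38.6 and 41.2 TPM, the highest of the 12, and with granular cell sums of 0.48 and 0.11 TPM. The thick ascending limb sum was 1441 TPM in the first of these libraries and 7.87 TPM in the other. The part of granular cells, smooth muscle and endothelium in the Ren1 values was not tested. In such bulk libraries fewer cells of a type and less RNA per cell cannot be told apart.

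**Figure D2:**
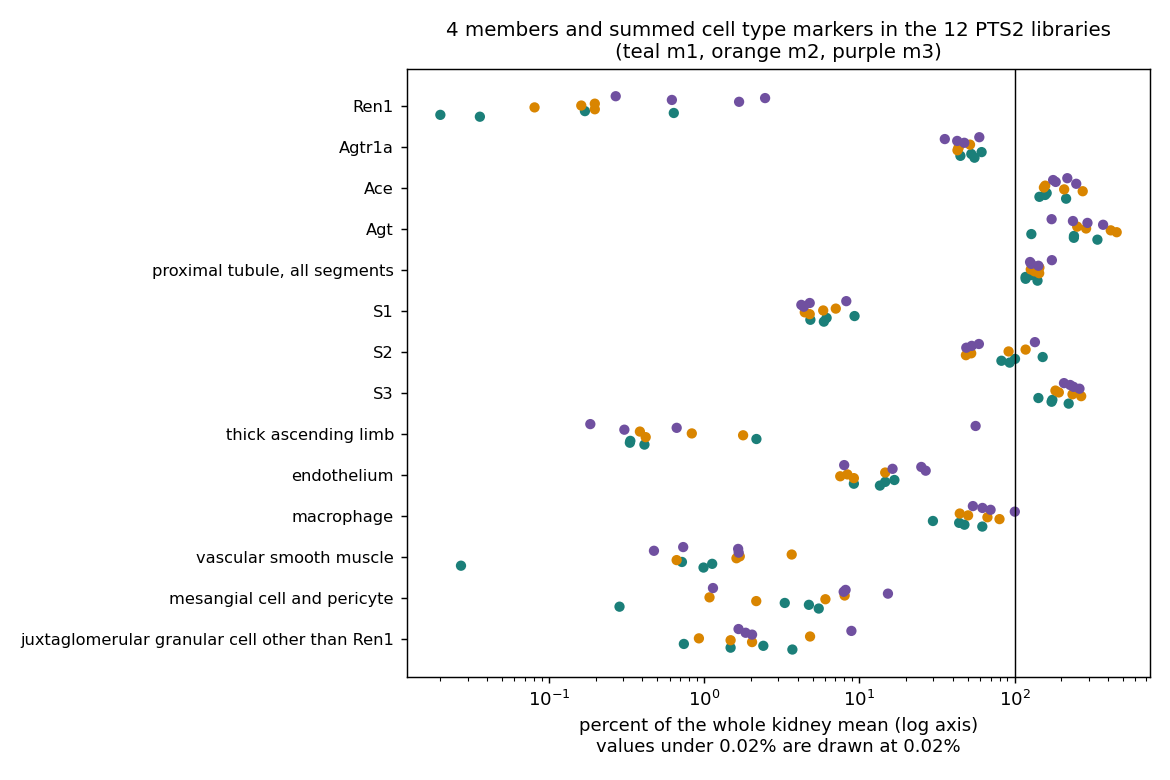
Level of 4 renin-angiotensin genes and summed TPM of 10 marker lists in each of the 12 PTS2 libraries (n = 4 per set, coloured by set), as a percent of the whole-kidney mean, on a log axis where the line marks 100%; values under 0.02% are drawn at 0.02%. Ren1 (0.544% on average) and the markers of smooth muscle (1.25%), granular cells (2.67%) and mesangial cells and pericytes (5.31%) lie at low percentages. Low percentages were not limited to these cells, and not all marker lists are drawn. Principal cells averaged 0.823%, the distal convoluted tubule 0.164%, intercalated cells 0.153% and the thick ascending limb 5.33%. Agt and Ace lie above 100%, as do the S3 markers and the markers of all proximal segments. For the thick ascending limb 1 purple point, m3 replicate 3, stands far to the right.

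Angiotensin-converting enzyme, which makes angiotensin II and sits on the brush border and on endothelium, is encoded by Ace (ENSMUSG00000020681; chromosome 11, 105967945 to 105989964, plus strand). Its levels were 81.6, 55.0, 59.8 and 61.2 TPM in m1, 104, 79.3, 58.7 and 59.9 TPM in m2, and 94.9, 69.9, 67.3 and 83.1 TPM in m3. In whole kidney they were 35.9, 40.6 and 37.6 TPM. Every tubule was above every whole-kidney library. The mean was 1.92 times that of whole kidney, and the difference was 0.90 ± 0.17 on the log2 scale (SE, limma adjusted p = 0.000321), or 1.16 relative to the median of all genes. Ace was higher in the same tubules in which the endothelial markers summed to 14.2% of whole kidney. Which cells the Ace level came from was not tested. The exons of Ace share 498 bases with Gm11651, a gene on the opposite strand. Whether reads were counted by strand is not given in the sources used here. Part of the Ace level could therefore come from that gene.

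Aminopeptidase A, which takes the first residue off angiotensin II, is encoded by Enpep (ENSMUSG00000028024; chromosome 3, 129269175 to 129332720, minus strand). Its levels were 51.8, 30.4, 47.3 and 68.7 TPM in m1, 39.8, 39.4, 50.5 and 70.1 TPM in m2, and 36.4, 34.4, 41.8 and 82.5 TPM in m3. In whole kidney they were 69.1, 71.0 and 62.5 TPM. The groups overlapped: 9 tubules lay below whole kidney, m1 and m2 replicates 4 within its range and m3 replicate 4 above it. The mean of 49.4 ± 16.3 TPM in PTS2 was 73.2% of the 67.5 ± 4.46 TPM in whole kidney, and the log2 difference of -0.50 ± 0.25 (SE) was not called (limma adjusted p = 0.1). Leaving out m3 replicate 4 gave -0.58 and a call (limma adjusted p = 0.0311), and so did 1 mean per set in place of the 12 libraries (-0.50, limma adjusted p = 0.000902).

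Neprilysin, a membrane endopeptidase that degrades many small peptides and turns angiotensin I into a shorter form, is encoded by Mme (ENSMUSG00000027820; chromosome 3, 63241537 to 63386030, plus strand). Its levels were 78.0, 40.8, 48.4 and 35.6 TPM in m1, 130, 87.7, 53.1 and 65.2 TPM in m2, and 86.5, 70.8, 69.5 and 51.2 TPM in m3. In whole kidney they were 47.6, 47.2 and 46.1 TPM. Of the 12 tubules, 10 lay above whole kidney and 2, both of m1, below it. The difference of 0.44 ± 0.28 on the log2 scale (SE, limma adjusted p = 0.199) was not called. With median-of-ratios rescaling it was 0.73 (limma adjusted p = 0.0276), and with quantile normalization 0.65 (limma adjusted p = 0.0430), so the Mme call depended on scaling.

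Insulin-regulated aminopeptidase, a membrane protein that binds and cleaves small peptides including a fragment of angiotensin, is encoded by Lnpep (ENSMUSG00000023845; chromosome 17, 17521410 to 17625050, minus strand). It was low everywhere. In PTS2 it ranged from 0.71 to 1.66 TPM with a median of 1.21 TPM, and in whole kidney it was at 2.58, 2.89 and 2.98 TPM. All 12 tubules lay below whole kidney, and the log2 difference was -0.81 ± 0.14 (SE, limma adjusted p = 0.000183), but under quantile normalization it was 0.0005 (limma adjusted p = 0.998). With median-of-ratios rescaling it stayed lower, at -0.61 (limma adjusted p = 0.00189). Its median rank was 10860 in PTS2 and 11020 in whole kidney.

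The type 1a angiotensin II receptor, a receptor coupled to G proteins, is encoded by Agtr1a (ENSMUSG00000049115; chromosome 13, 30336441 to 30382867, plus strand). Its levels were 24.3, 19.8, 23.2 and 27.0 TPM in m1, 18.9, 19.2, 19.3 and 22.8 TPM in m2, and 20.9, 18.8, 15.7 and 26.1 TPM in m3. In whole kidney they were 43.8, 44.9 and 43.6 TPM. The receptor was present in every tubule and below whole kidney in all 12, at 48.4% of its mean. The log2 difference was -1.03 ± 0.13 (SE, limma adjusted p = 5.21e-06), or -0.76 relative to the median of all genes. The 3 markers of mesangial cells and pericytes, cells that also bear this receptor, were all lower in every tubule, with Rgs5 at 0 in 1, and summed to 0.05 to 2.68 TPM in PTS2 and 16.8 to 18.8 TPM in whole kidney. Their part in the Agtr1a difference was not tested.

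The type 1b receptor gene Agtr1b (ENSMUSG00000054988; chromosome 3, 20314473 to 20367177, minus strand) was listed at 0 in 11 tubules and 2 whole-kidney libraries. The other values were 0.04 TPM in m3 replicate 3 and 0.16 TPM in whole kidney replicate 3. It was below the filter on low values. In the fit with no filter it was not called (limma adjusted p = 0.143), and no fold is given. The coding sequences of Agtr1a and Agtr1b are 1080 bases each and share 981 of them (90.8%), with a longest identical stretch of 66 bases. Reads that match both could have been split between them, which leaves the division between the receptors uncertain.

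The order of the levels differed between the tissues. In PTS2 the means ran from Agt through Ace, Mme, Enpep, Agtr1a, Lnpep and Ren1 to Agtr1b, and in whole kidney from Ren1 through Enpep, Agt, Mme, Agtr1a, Ace and Lnpep to Agtr1b. Some neighbours in PTS2 were not separated. Ace was above Mme in 7 of 12 libraries, and Mme above Enpep in 9 of 12. Enpep was above Agtr1a in all 12. In whole kidney each of the neighbours kept the same order in all 3 libraries.

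Ratios within a library show the same reordering without depending on the common scale. Agt was 3.96 ± 1.92 times Enpep in PTS2 (range 1.12 to 6.85) and 0.890 ± 0.0900 times in whole kidney (range 0.790 to 0.964). The ratio of Agt to Agtr1a was 8.41 ± 3.35 in PTS2 (range 2.84 to 14.4) and 1.36 ± 0.0992 in whole kidney. Ace was 1.62 ± 0.616 times Enpep in PTS2 (range 0.854 to 2.63) and 0.564 ± 0.0415 times in whole kidney (range 0.519 to 0.601). None of these 3 ratios overlapped between the tissues. For Agt to Agtr1a this followed from the levels, since Agt lay above and Agtr1a below whole kidney in all 12 tubules. The share of all gene pairs without overlap is not given here. The ratio of Agt to Ace did overlap, at 2.36 ± 0.579 and 1.58 ± 0.192. It was below whole kidney in 2 tubules and above it in 10. The ratio of Mme to Enpep also overlapped, at 1.55 ± 0.814 in PTS2 and 0.697 ± 0.0372 in whole kidney. It too was below whole kidney in 2 tubules and above it in 10.

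**Figure D3:**
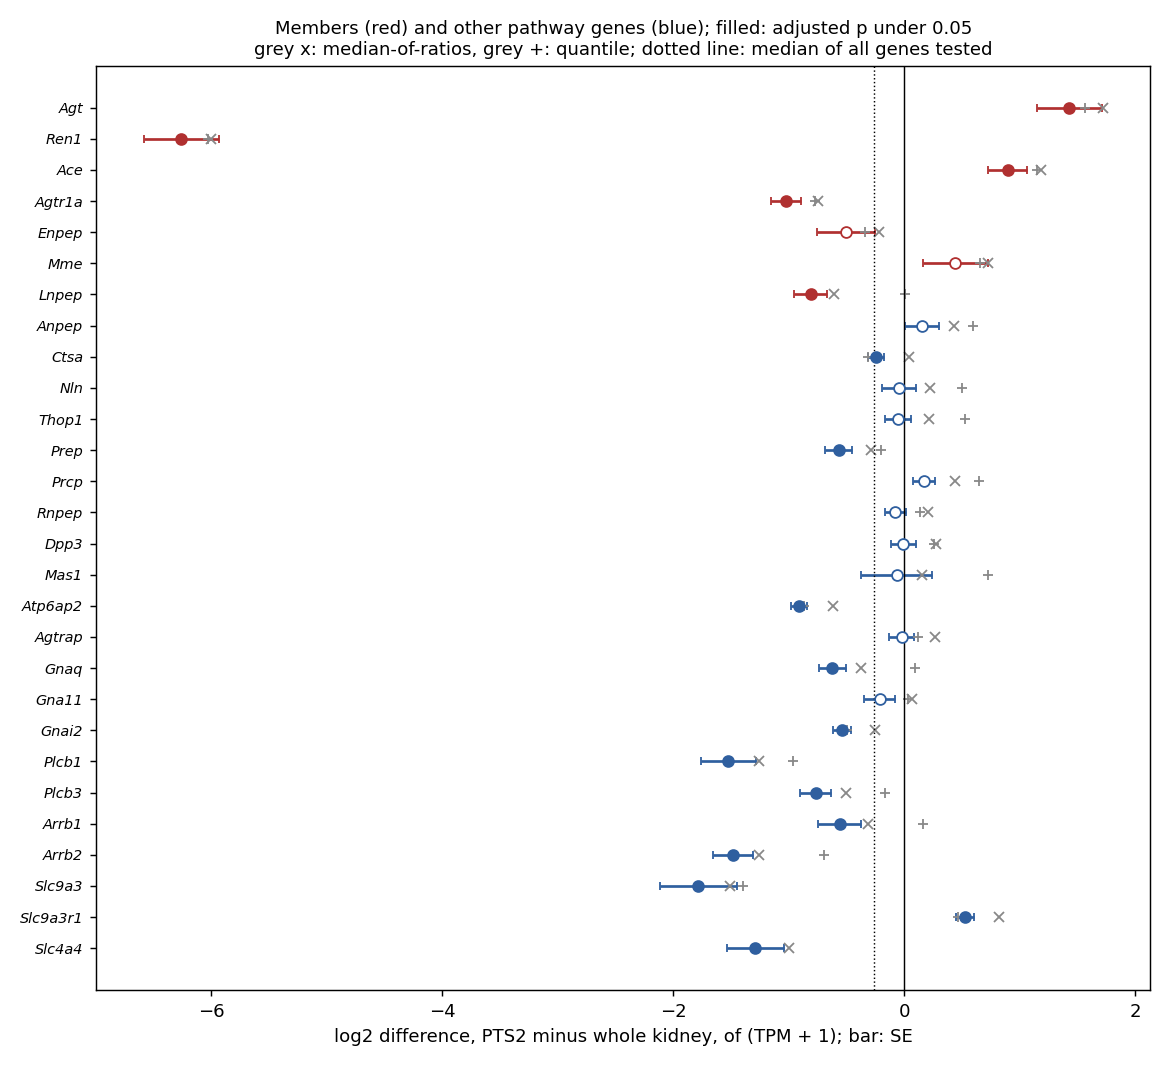
Log2 difference of TPM + 1 between PTS2 (n = 12) and whole kidney (n = 3), with its SE, for the 7 tested renin-angiotensin genes (red) and 21 tested genes of the wider pathway (blue), filled where the limma adjusted p was under 0.05; grey marks give the value with median-of-ratios (x) and quantile (+) scaling, and the dotted line is the median of all genes, -0.27. Ren1 is farthest from 0, Agt and Ace keep their side of 0 under both scalings, Lnpep lies at 0 with quantile scaling, and Ctsa, Nln, Thop1, Rnpep, Dpp3, Mas1, Agtrap, Gnaq, Gna11 and Arrb1 cross 0 under at least 1 scaling.

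A list of 26 other genes of the pathway was counted beside the 8. Of these, 21 were tested, 1 was called higher in PTS2 and 11 lower, with a median log2 difference of -0.25, where 9.68% of all genes were called higher and 41.5% lower and the median was -0.27. Among 11 further angiotensin-processing enzymes 8 were tested, none was called higher and 2 were lower. The former count depended on scaling: 4 of 8 were called higher with median-of-ratios rescaling (Anpep, Prcp, Dpp3 and Rnpep) and 5 of 8 with quantile normalization (Anpep, Prcp, Dpp3, Nln and Thop1). The background moved as well. Of all 12039 genes tested, 1165 were called higher without rescaling, 2828 with median-of-ratios rescaling and 4164 with quantile normalization. Prep, a prolyl endopeptidase, fell by 0.57 ± 0.12 on the log2 scale (SE, limma adjusted p = 0.000756), but with quantile normalization by 0.20 and without a call (limma adjusted p = 0.081). Ctsa, a lysosomal carboxypeptidase, was at -0.25 ± 0.07 (limma adjusted p = 0.00686), but at 0.04 with median-of-ratios rescaling (limma adjusted p = 0.597). Anpep, the aminopeptidase that follows aminopeptidase A in the breakdown of angiotensin, was at 19.8 ± 3.73 TPM in the tubules, against 17.5 ± 1.67 TPM in whole kidney (limma adjusted p = 0.415). The chymase gene Cma1 and the cathepsin G gene Ctsg, whose enzymes can form angiotensin II in other tissues, were listed at 0 in all 15 libraries, and the mast cell carboxypeptidase gene Cpa3 reached 0.02 TPM in PTS2.

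Among 4 other receptors, 2 were tested. Atp6ap2, which binds renin and its proenzyme and is also part of the vacuolar proton pump, was lower in PTS2, at 90.8 ± 5.55 TPM against 172 ± 16.1 TPM. Its log2 difference was -0.91 ± 0.07 (SE, limma adjusted p = 1.29e-08), with all 12 tubules below whole kidney. Mas1, the receptor of a shorter angiotensin peptide, was at 3.13 ± 1.33 TPM and 3.12 ± 0.512 TPM, and its log2 difference of -0.07 ± 0.31 was not called (limma adjusted p = 0.867). The type 2 receptor gene Agtr2 was at 0 in whole kidney and reached 0.04 TPM in PTS2, and Mrgprd, a receptor of an angiotensin fragment, was at 0 in whole kidney and reached 0.10 TPM in PTS2.

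Of 8 genes that couple the type 1 receptor to the cell or remove it from the surface, 6 were called lower in PTS2, beside 41.5% of all genes. The count was 3 with quantile normalization, where 2273 of 12039 genes tested were called lower. The phospholipase gene Plcb1 fell by 1.53 ± 0.24 on the log2 scale (SE, limma adjusted p = 5.29e-05), from 13.9 ± 1.01 TPM in whole kidney to 4.37 ± 1.5 TPM. The arrestin gene Arrb2 averaged 1.04 ± 0.318 TPM in the tubules, against 4.79 ± 1.64 TPM in whole kidney, and fell by 1.49 ± 0.17 (limma adjusted p = 1.74e-06). The others were Gnai2 at -0.54, Plcb3 at -0.77, Gnaq at -0.62 and Arrb1 at -0.56, of which Gnaq (0.09) and Arrb1 (0.16) were on the other side of 0 with quantile normalization. That scaling also left Plcb3 without a call (-0.17, limma adjusted p = 0.232), and Arrb1 had none with median-of-ratios rescaling (-0.32) or without whole kidney replicate 1 (-0.44) or 2 (-0.57). Agtrap, a protein that binds the receptor and promotes its internalization, was at 68.6 ± 8.28 TPM and 69.4 ± 4.82 TPM, which did not differ beyond the spread of the libraries (limma adjusted p = 0.870).

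All 3 listed genes of proximal sodium transport that angiotensin II is known to act on were called, 2 lower and 1 higher, beside 51.2% of all genes called. The sodium-proton exchanger gene Slc9a3 averaged 7.84 ± 3.65 TPM in the tubules, against 27.4 ± 3.33 TPM in whole kidney, and fell by 1.78 ± 0.33 on the log2 scale (SE, limma adjusted p = 0.000290). The basolateral bicarbonate cotransporter gene Slc4a4 was at 95.1 ± 30.6 TPM and 224 ± 11.4 TPM (limma adjusted p = 0.000371). Slc9a3r1, a scaffold that anchors the exchanger in the brush border, was higher, at 356 ± 30.1 TPM against 247 ± 23.1 TPM, a rise of 0.52 ± 0.08 on the log2 scale (limma adjusted p = 4.93e-05). For these 3 genes the tubules and whole kidney did not overlap. The share of all tested genes without overlap is not given here. The S1 markers summed to 5.83% of whole kidney in the same tubules, with Slc2a2 at 41.7%. The part of other segments in these differences was not tested.

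The sets m1, m2 and m3 were then compared. Of the 8 genes, 6 averaged 1 TPM or more over the 12 tubules, and 0 passed the limma F test among sets, where 3.02% of 11300 genes did. At an unadjusted p under 0.05 the count among the 6 was also 0. With the replicate number as a block, Agt (limma adjusted p = 0.0115) and Mme (limma adjusted p = 0.0357) were called, where 888 of 11300 genes were. No label says that the number pairs libraries, so the fit without the block is the one given here. Agt averaged 143 ± 52.2 (m1), 212 ± 58.3 (m2) and 161 ± 50.5 TPM (m3; SD, n = 4; limma adjusted p = 0.479). Mme was at 50.7 ± 18.9, 84.1 ± 34.1 and 69.5 ± 14.4 TPM (limma adjusted p = 0.349). Ace was at 64.4 ± 11.8, 75.6 ± 21.4 and 78.8 ± 12.7 TPM, Agtr1a at 23.6 ± 3.02, 20 ± 1.83 and 20.4 ± 4.40 TPM, and Enpep at 49.5 ± 15.7, 50 ± 14.4 and 48.8 ± 22.7 TPM. In each of these genes the sets overlapped. Of the 26 pathway genes, 21 were tested among sets and 0 passed, while Plcb3 had an unadjusted p of 0.0145 (limma adjusted p = 0.176).

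Most of the variation of these genes lay within the sets. The SD over the 12 tubules on the log2(TPM + 1) scale was 0.516 for Agt, 0.518 for Mme and 0.439 for Enpep, where the median over all genes tested was 0.230. These SDs stood at percentiles 92.3, 92.4 and 88.0 of all genes. Ace, Agtr1a and Lnpep varied less, with SDs of 0.296, 0.219 and 0.195. The share of the variance that lay between sets was 26.0% for Agt, 35.0% for Mme and 0.753% for Enpep, beside a median of 22% over all genes.

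For some of the 8 genes the variation within sets went with the number in the library's label. In all 3 sets the library numbered 1 had the highest Agt, Ace and Mme. The library numbered 4 had the lowest Agt and the highest Enpep and Agtr1a. Such patterns were not limited to the 8 genes. In all 3 sets Agtrap was highest at number 1 and lowest at number 4, and Nln and Slc4a4 were highest at number 4. The share of all genes with such a pattern is not given here. Agt was at 233 ± 35.1 TPM in the libraries numbered 1 and 111 ± 37.9 TPM in those numbered 4 (SD, n = 3 each), and these did not overlap. Enpep was at 42.7 ± 8.07 TPM in those numbered 1 and 73.8 ± 7.58 TPM in those numbered 4. Mme was at 98.3 ± 28.2 and 50.7 ± 14.8 TPM. The S3 marker Cyp7b1, an oxysterol hydroxylase, was at 692 ± 82.3 TPM in the libraries numbered 1 and 207 ± 95.6 TPM in those numbered 4. The sum of the 3 S3 markers moved less: it was 3012 (m1), 3626 (m2) and 3535 TPM (m3) at number 1, and 1922, 2475 and 2810 TPM at number 4. The phosphate transporter gene Slc34a1 was at 2777 ± 551 and 4817 ± 303 TPM, and the S2 marker Slc22a8, an organic anion transporter, at 38.8 ± 20.5 and 127 ± 29.7 TPM. Summed, the 5 genes that mark every proximal segment overlapped between the numbers, with 13257, 13594 and 13440 TPM at number 1 and 12063, 13638 and 16406 TPM at number 4. The labels do not say what the numbers stand for, the pattern was noticed in these data, and the part of segment identity in it was not tested.

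**Figure D4:**
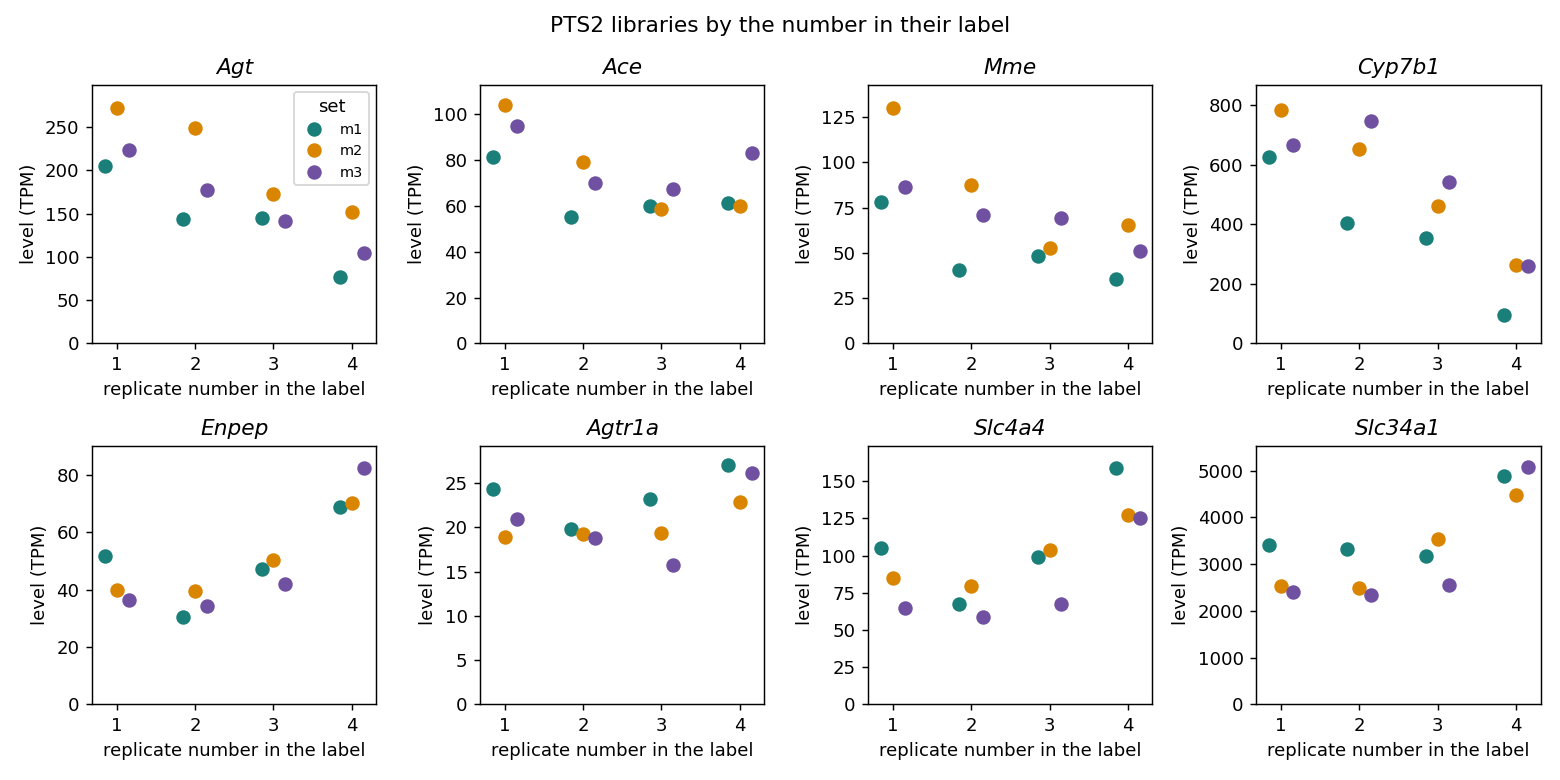
Levels in TPM of Agt, Ace, Mme, Enpep and Agtr1a, with Cyp7b1, Slc4a4 and Slc34a1 beside them, in the 12 PTS2 libraries, by the replicate number of the label (horizontal axis) and coloured by set (n = 1 per set and number). In all 3 sets Agt is highest at number 1 and lowest at number 4, and Enpep is highest at number 4.

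Some pairs of genes varied alike over the 12 tubules, among them the precursor with neprilysin. These correlations of log2(TPM + 1) are descriptions over 12 libraries that share sets, numbers and scaling. The pairs with the strongest correlations are given first, and the r of gene pairs in general is not given here. Agt and Mme had a Pearson r of 0.868 (Spearman rho 0.888, and r of 0.748 without the 2 libraries farthest from the median of Agt). For Ace and Mme r was 0.801 (rho 0.727), and 0.616 without the 2 libraries farthest from the median of Ace. For Agtr1a and Enpep it was 0.720 (rho 0.657), and 0.774 without the 2 farthest for Agtr1a, which was then the highest of these values. Agt and Enpep had r of -0.601 (rho -0.441), and -0.504 without the 2 farthest for Agt. The other pairs had weaker correlations, from Agt with Ace at 0.569 (0.38 without the 2 farthest for Agt) to Ace with Agtr1a at -0.047.

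Among the other 11299 genes averaging 1 TPM or more in PTS2, those with the highest Pearson r to each of the 6 genes were listed. For Agt they were Afm, which encodes afamin, a plasma protein that carries vitamin E (0.976, rho 0.951), and Methig1 (0.974, rho 0.930). Mme was closest to P3h2, a prolyl hydroxylase of collagen (0.972, rho 0.972). Ace was closest to Zbtb40 (0.953) and Ablim1 (0.952), Enpep to Nxt2 (0.966) and Galnt3 (0.948), Agtr1a to Lgals8 (0.910) and Psmc2 (0.909), and Lnpep to Patl1 (0.885) and Asb7 (0.856).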

How the data were processed

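RNA from 12 PTS2 tubules and 3 whole kidneys was amplified with a SMART-Seq V4 low-input kit, per the labels' protocols. The authors deposited 1 table of TPM values, and each of the 15 columns summed to between 999999 and 1000001. STAR 2.5.1b, RSEM 1.2.31 and GRCm38.p5 are named in the submitters' processing notes. The authors also deposited 4 columns of group means and standard errors (other values), not used here. TPM keep no depth, so no count test was run.

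Libraries were grouped by their description labels. limma 3.58.1 in R 4.3.3 (lmFit, eBayes with trend) was fitted to log2(TPM + 1), with genes that averaged 1 TPM or more, Benjamini-Hochberg adjustment over all genes tested and a threshold of 0.05. For PTS2 against whole kidney the set was a correlated block (correlation 0.0669), and among sets an F test was used. Both fits were tested on simulated data. Positions came from GENCODE M21 and promoters from RefSeq. Python 3.11.15 (numpy 2.4.6, pandas 2.3.3) made summaries and matplotlib 3.10.9 the figures. The 8 genes, the 26 pathway genes and the 16 marker lists were chosen with earlier results of these data known. Named genes were these lists and, for each gene at 1 TPM or more in PTS2, the 2 genes with the highest Pearson r; some genes under this rule are not reported here. Alternatives were a pseudocount of 0.1, no filter, a filter at 10 TPM, scaling by median-of-ratios or quantiles, the replicate number as a block, no set correlation, averaging each set first, and leaving out 1 library at a time.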

Additional observations from a re-analysis of the deposited data

Results flagged for a closer look

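In each set of 4 tubules the distance of the extreme library from the next was divided by the whole range (Dixon's test at 95%). Of 91 such tests over the 8 genes and the pathway list, 12 stood out. In 5 of these, Agtr1b, Agtr2, Mrgprd and Cpa3 in a pair of sets, the other 3 libraries were listed at 0, so that any value above 0 stands out by construction and the chance rate of about 1 in 20 does not apply. The other 7 are named with their values. Among the 8 genes, Enpep was at 82.47 TPM in m3 replicate 4 (next 41.84 TPM), Agtr1a at 22.78 TPM in m2 replicate 4 (next 19.3 TPM), and Agtr1b at 0.04 TPM in m3 replicate 3 (next 0). The same m3 replicate 4 stood out for Slc4a4, at 124.85 TPM (next 67.41 TPM), and Anpep, at 23.43 TPM (next 16.4 TPM).

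In m2 replicate 1 the G protein genes Gnaq and Gna11 were at 5.06 TPM (next 3.76 TPM) and 46.93 TPM (next 35.61 TPM). In m1 replicate 1 the aminopeptidase gene Rnpep was at 54.67 TPM (next 41.92 TPM) and Mrgprd at 0.1 TPM, with the other libraries of the set at 0. Agtr2 was at 0.04 TPM in m2 replicate 2, and Cpa3 at 0.02 TPM in m2 replicate 2 and m3 replicate 2, again with the rest of the set at 0.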

How the results depend on the processing

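Agt, Ren1, Ace and Agtr1a kept their direction and their call in all 24 settings, with log2 differences from 1.36 to 1.72, -8.04 to -6.00, 0.85 to 1.18 and -1.11 to -0.74. Lnpep was called in 22 of 23 settings and was at 0.0005 with quantile normalization; a mean of at least 10 TPM removed it. Enpep was called in 3 of 24 settings: without m3 replicate 4, with 1 mean per set (-0.50, limma adjusted p = 0.000902) and with the replicate block. Mme was called in 2 of 24, the rescalings. Scaling also turned pathway genes: with median-of-ratios Ctsa was at 0.0418, Rnpep at 0.21 and Dpp3 at 0.28, and with quantile normalization Nln was at 0.50, Thop1 at 0.52, Dpp3 at 0.25, Gnaq at 0.0944 and Arrb1 at 0.16. Arrb1 lost its call without whole kidney replicate 1 (-0.44) or 2 (-0.57), and Anpep, Prcp and Dpp3 were called higher under both rescalings, Rnpep with median-of-ratios and Nln and Thop1 with quantile normalization.

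Over all genes 6161 were called between PTS2 and whole kidney, 9399 with no filter, 3113 at a mean of at least 10 TPM, and 4761 to 6712 with 1 library left out. Of the calls 18.9% were higher in PTS2, 49.7% with median-of-ratios and 64.7% with quantile scaling. Among sets 341 genes were called, 196 with no filter, and 197 to 563 with 1 library left out (563 without m1 replicate 1, 220 without m2 replicate 2, and 197, 226 and 209 without m3 replicates 1, 2 and 3). The members called were 5, 4 to 6 over the alternatives, and among sets 0 except with the replicate block.

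Same-numbered libraries deviated together with a mean r of 0.143 (0.025 to 0.273), over 0.1 in 7 of 12 pairs, beside -0.048 in 36 other pairs, and 9 of 12 libraries correlated best with their own number. This is a hint from the data, not the design, so the number was not taken to pair libraries. With the replicate block 888 of 11300 genes were called among sets. They included 2 of the 6 members tested, Agt (limma adjusted p = 0.0115) and Mme (limma adjusted p = 0.0357). With the same block Enpep was called against whole kidney (-0.71, limma adjusted p = 0.000729). With TPM alone the depth behind low values such as those of Ren1 and Agtr1b is unknown. The causes of these shifts were not tested.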
